A study of Rattus norvegicus with 6 samples.

Results

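Ldha, Pgk1 and Sdha encode enzymes of glucose breakdown, and their linear messenger RNAs were measured by 4 probes on arrays built for circular RNAs. The probes were chosen by name and by the transcript accession that the scanner files give them. Ldha had 2 probes, CUST_6_PI421900130 (accession NM_017025.1), here called the reference probe, and A_44_P210461 (NM_017025), here called the catalogue probe. Pgk1 had CUST_2_PI421900130 (NM_053291.3) and Sdha had CUST_12_PI421900130 (NM_130428.1). These 4 probes stand among 82 probes for linear transcripts and 14227 non-control probes in all, of which 14145 are for circular RNAs.

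The arrays were run on RNA of smooth muscle cells from rat vessels, which contract to narrow the vessel. Both groups were grown in serum-containing DMEM, and the treated group was also given PDGF-BB, a growth factor for these cells, at 20 ng/ml for 24 h. There were 3 arrays per group, hybridised in a single colour (Cy3). No label states that each array had a culture of its own, so p-values reflect the spread among these arrays alone, and that spread may be technical. The labels also give no rat strain, age or vessel, and none of the 39 linear probes that could be matched to a symbol carried a smooth muscle, fibroblast, endothelial or macrophage marker from the lists used. The other 43 linear probes had no symbol here, so the labelled cell type was not checked against markers. Linear RNA is often digested before circular RNA is labelled. The sources used here do not say whether that was done, so the share of each linear transcript that reached the arrays is not known. In a bulk sample, fewer cells that carry a transcript and less of it per cell cannot be told apart.

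Glycolysis turns glucose into pyruvate in the cytosol. Phosphoglycerate kinase, encoded by Pgk1, carries out a step of it that yields ATP. Lactate dehydrogenase A, encoded by Ldha, turns pyruvate into lactate and restores the NAD+ that glycolysis needs. Succinate dehydrogenase subunit A, encoded by Sdha, is the flavoprotein subunit of complex II in mitochondria, which belongs to both the tricarboxylic acid cycle and the respiratory chain. Dividing smooth muscle cells are known to draw on glycolysis, and all 3 genes are also in common use as reference genes.

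The sequences upstream of Ldha and Sdha are shown to place both genes in the genome and to set their proximal promoters side by side. They are the 250 bases before the annotated gene start, 5′ to 3′, on the plus strand of build GRCr8 from RefSeq. That build is not the rn4 build named in the file headers, so the genes were matched by symbol, and 2 of the 3 genes were matched. Ldha lies at chr1:106507842-106508091 and Sdha at chr1:30764303-30764552. Capitals mark matches, on either strand, to ACGTG and GCGTG (cores bound by hypoxia-inducible factor), GGGCGG (the GC box) and the NRF1 motif core. The NRF1 core was searched with 1 position open to any base, so a match need not be a palindrome.
Ldha: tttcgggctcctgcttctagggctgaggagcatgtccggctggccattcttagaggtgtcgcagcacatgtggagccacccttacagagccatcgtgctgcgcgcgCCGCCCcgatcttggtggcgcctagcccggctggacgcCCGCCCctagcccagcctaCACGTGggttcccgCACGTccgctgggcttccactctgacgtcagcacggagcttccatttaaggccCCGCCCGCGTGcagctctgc
Sdha: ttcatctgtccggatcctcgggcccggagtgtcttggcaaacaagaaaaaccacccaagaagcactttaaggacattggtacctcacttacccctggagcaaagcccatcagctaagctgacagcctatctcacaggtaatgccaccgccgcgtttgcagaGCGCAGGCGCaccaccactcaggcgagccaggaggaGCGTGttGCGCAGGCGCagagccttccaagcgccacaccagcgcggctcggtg
The Ldha window held 3 matches to ACGTG, of which 2 are the same CACGTG read on both strands, 1 match to GCGTG and 3 to GGGCGG. The Sdha window held 1 match to GCGTG and 2 to the NRF1 core. Among 33469 promoter windows of the same length, 16.6% held ACGTG, 25.9% GCGTG, 30.5% GGGCGG and 3.75% the NRF1 core. Base composition was 66.4% G and C for Ldha and 59.6% for Sdha, against a median of 51.2% over all windows. A match describes the letters only.

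All 240 spots of the 4 probes (10 per probe and array) were well above background, and none was saturated. Outlier flags removed 17 of the 240 spots. The 75th percentile of probe signals ran from 71.2 on PDGF-BB array 3 to 141 on PDGF-BB array 1, so levels are given as the log2 signal minus the log2 of that percentile unless unscaled signal is named. Levels of different probes cannot be set against each other, since each probe binds its target with its own efficiency. Control 1 and all 3 PDGF-BB arrays lay in the first strip of the slide, and controls 2 and 3 in the second strip. Controls 2 and 3 shared a lane across the strips with PDGF-BB arrays 1 and 2, respectively. Before background subtraction, the median signal of negative control spots was 20 on control 2 and 18.5 on PDGF-BB array 1, against 16 on each of the other arrays.

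Sdha was the only one of the 4 probes whose groups did not overlap, with higher levels in PDGF-BB cells, and none of the 4 passed the adjusted threshold. Ldha and Pgk1 levels overlapped between control and PDGF-BB cells on every probe. The point estimates were a 1.34-fold higher level for Sdha, 1.22-fold for the Ldha catalogue probe, 1.09-fold for Pgk1 and 1.01-fold for the Ldha reference probe. Over all 12360 tested probes 2 passed (0.0162%), so a count of 0 among 4 probes is no departure from the background.

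For Sdha, the level was 1.20, 0.88 and 0.97 on controls 1, 2 and 3. The 3 PDGF-BB arrays were at 1.35, 1.54 and 1.43. Each PDGF-BB array thus stood above each control, and control 1 was the nearest control. The means were 1.02 ± 0.17 in control and 1.44 ± 0.092 in PDGF-BB cells (SD, n = 3 each). The log2 fold change was 0.42 (SE 0.18, 95% interval 0.018 to 0.82), with an unadjusted p of 0.0423 and an adjusted p of 0.544 in limma with Benjamini-Hochberg adjustment over all 12360 tested probes. Of the 4 probes, Sdha alone had an unadjusted limma p under 0.05, which 9.04% of all tested probes reached, 5.09% with higher levels in PDGF-BB cells, and groups without overlap and higher in PDGF-BB cells were found at 8.89% of 12151 probes with 6 values (15.2% in either direction). Sdha is thus not set apart from the table by either count. Most of that table is circular RNA probes. Of the 47 tested linear probes, 6 had an unadjusted limma p under 0.05, Sdha among them. Groups without overlap, in either direction, were found at 11 linear probes. The median log2 fold change was 0.19 over the linear probes, against 0.019 over all tested probes.

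The unscaled Sdha signal showed less separation than the scaled level. It was 211, 179 and 219 on controls 1, 2 and 3 and 360, 285 and 191 on PDGF-BB arrays 1, 2 and 3. On this scale PDGF-BB array 3 fell below controls 1 and 3, and the groups overlapped. That array also had the lowest 75th percentile of all probes, at 71.2. With no scaling between arrays the mean log2 fold change of Sdha was 0.42, with a limma adjusted p of 1.00.

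Group and position on the slide were partly tied, so the Sdha difference was also taken by position. Within the first strip, where control 1 is the lone control, the PDGF-BB mean was higher by 0.24 on the log2 scale. Between arrays that shared a lane, PDGF-BB array 1 stood 0.48 above control 2 and PDGF-BB array 2 stood 0.56 above control 3. Both lane pairs set a PDGF-BB array of the first strip against a control of the second, so group and strip cannot be told apart in them. The direction was the same in each of these comparisons, and the limma adjusted p was 0.891 with the strip as a block and 0.395 with the lane as a block.

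**Figure D1:**
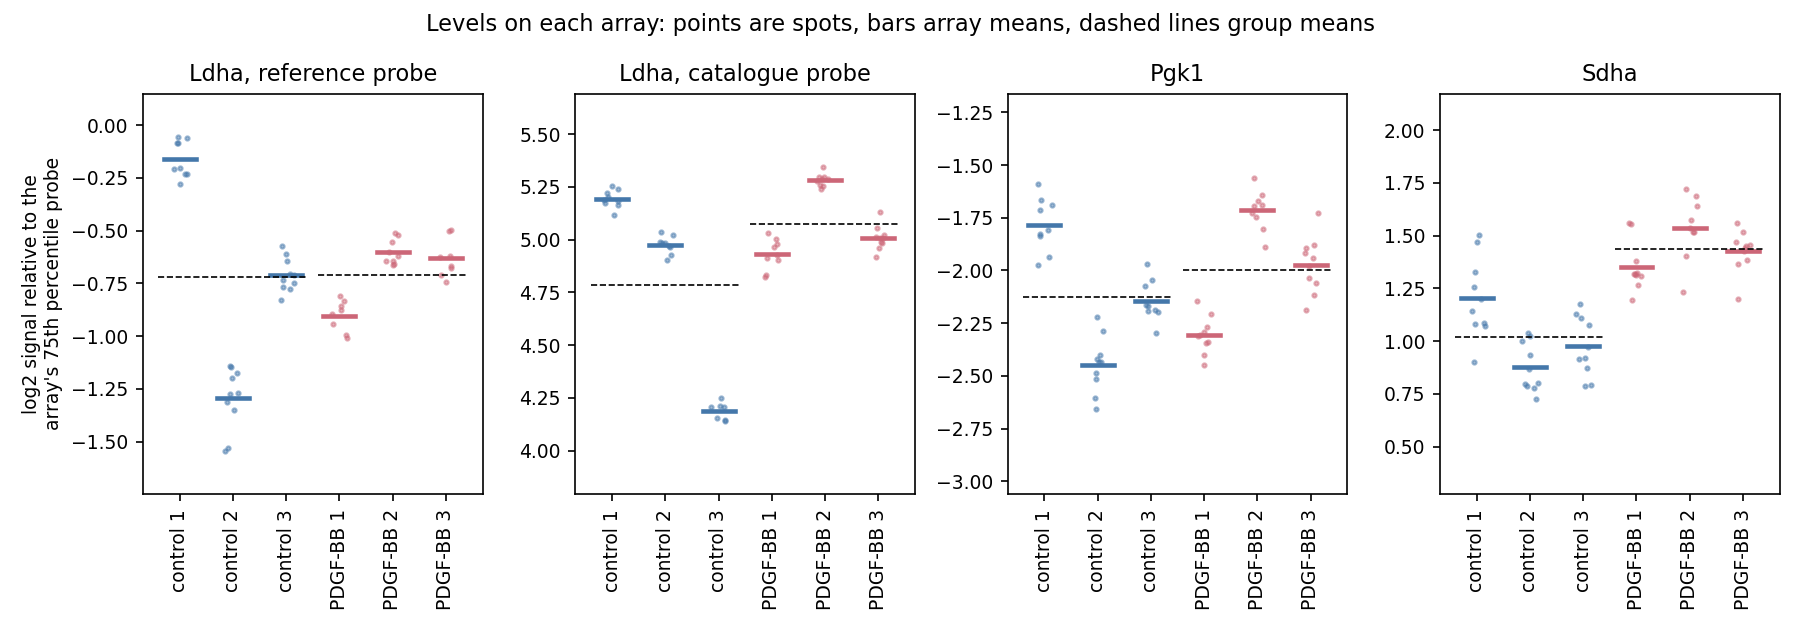
Level of each probe (log2 signal minus that of the 75th percentile probe, vertical axis, same span in each panel) on the 3 control and 3 PDGF-BB arrays; points are spots, solid bars array means and dashed lines group means. The Sdha array means run from 0.88 to 1.20 in control and from 1.35 to 1.54 in PDGF-BB cells, while the other 3 probes overlap between groups.

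Single Sdha spots overlapped between groups although the array means did not. Of 29 used Sdha spots on PDGF-BB arrays, 29 lay above the median of the 30 control spots and 11 above the highest of them. The SD over the spots of an array ran from 0.097 to 0.19 log2 units for Sdha. Spots repeat the same RNA, so they give the error of an array mean and add no replicates.

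Pgk1 differed less between groups than among the arrays of each group. Its level was -1.78, -2.45 and -2.14 on controls 1, 2 and 3. The PDGF-BB arrays were at -2.31, -1.71 and -1.97. Control 1 and PDGF-BB array 2 were high and control 2 and PDGF-BB array 1 were low, so both groups covered nearly the same range. The control mean was -2.12 ± 0.33 and the PDGF-BB mean -1.998 ± 0.30 (SD, n = 3 each). The log2 fold change was 0.13 (SE 0.24, 95% interval -0.41 to 0.66, limma adjusted p = 0.91). As a fold change the interval runs from 0.754 to 1.58, which includes changes in either direction. Unscaled Pgk1 signal was low, from 17.9 on control 2 to 30.0 on PDGF-BB array 2. Within the first strip the log2 difference was -0.22, and without control 2 it was -0.035.

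The Ldha reference probe had nearly equal group means and a wide spread among controls. Its level was -0.16, -1.29 and -0.71 on controls 1, 2 and 3. The PDGF-BB arrays were at -0.90, -0.60 and -0.63, inside the range of the controls. The means were -0.72 ± 0.57 and -0.71 ± 0.17 (SD, n = 3 each), and the log2 fold change was 0.0098 (SE 0.28, 95% interval -0.62 to 0.64, limma adjusted p = 0.995). Its direction rested on single arrays, with a log2 fold change of -0.28 without control 2 and 0.29 without control 1.

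The Ldha catalogue probe gave a different order of the arrays. Its level was 5.19, 4.98 and 4.19 on controls 1, 2 and 3 and 4.93, 5.28 and 5.01 on PDGF-BB arrays 1, 2 and 3. Control 3 stood well below the other 5 arrays, which lay within the range from 4.93 to 5.28. The control mean was 4.79 ± 0.53 and the PDGF-BB mean 5.07 ± 0.18 (SD, n = 3 each). The log2 fold change was 0.29 (SE 0.27, 95% interval -0.32 to 0.90, limma adjusted p = 0.773). Without control 3 it was -0.010, and with quantile normalization -0.15.

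Both Ldha probes were highest among controls on control 1 and disagreed on which control was lowest. The log2 ratio of the catalogue to the reference probe within an array does not depend on a constant scaling of arrays. It was 5.35, 6.27 and 4.90 on controls 1, 2 and 3, a range of 1.37, and 5.83, 5.89 and 5.64 on the PDGF-BB arrays, a range of 0.25. Control 2, highest in this ratio, had the lowest reference probe level, and control 3, lowest in the ratio, had the lowest catalogue probe level. Across the 6 arrays the levels of both probes correlated at 0.22 (Pearson; rank correlation 0.71).

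For Ldha and Pgk1 the spread between arrays was many times the error of an array mean over its spots. The pooled SD of array means within groups was 0.40 log2 units for the Ldha catalogue probe, against a spot-based standard error of 0.016, a ratio of 24.03. The ratios were 13.6 for the Ldha reference probe and 8.60 for Pgk1. For Sdha the SD between arrays was 0.14 and the spot-based standard error 0.044, a ratio of 3.08. Sdha thus had the smallest spread between arrays of the 4 probes.

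Ratios within an array compare Sdha with the glycolytic genes without any scaling between arrays. The mean log2 ratio of Sdha was higher in PDGF-BB cells against Pgk1 and against both Ldha probes, and in none of the 6 ratios among the 4 probes were the groups free of overlap. Among all 741 pairs of linear probes well above background on 6 arrays, 11.6% had no overlap, so 0 of 6 is no departure from the background. With 3 arrays against 3 the exact two-sided permutation test cannot go below p = 0.1.

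The log2 ratio of Sdha to Pgk1 was 2.99, 3.32 and 3.12 on controls 1, 2 and 3. On PDGF-BB arrays 1, 2 and 3 it was 3.66, 3.25 and 3.40. PDGF-BB array 2 fell just below control 2, and this was the lone overlap. The means were 3.14 ± 0.17 and 3.44 ± 0.21 (SD, n = 3 each), a difference of 0.29 (SE 0.15), or 1.23-fold (exact permutation p = 0.2, adjusted over 6 ratios 0.8). Within the first strip the difference was 0.45, and between lane partners 0.34 and 0.13.

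For Sdha to the Ldha reference probe the log2 ratio was 1.36, 2.17 and 1.68 on controls 1, 2 and 3 and 2.26, 2.14 and 2.06 on PDGF-BB arrays 1, 2 and 3. The PDGF-BB arrays lay close together at the upper end of the control range, where control 2 also lay. The means were 1.74 ± 0.41 and 2.15 ± 0.10 (SD, n = 3 each), a difference of 0.41 (SE 0.24; exact permutation p = 0.3, adjusted 0.8). The size depended on which control was present, at 0.63 without control 2 and 0.22 without control 1.

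Against the Ldha catalogue probe, the log2 ratio of Sdha was -3.99, -4.10 and -3.21 on controls 1, 2 and 3 and -3.58, -3.75 and -3.58 on PDGF-BB arrays 1, 2 and 3. The PDGF-BB arrays lay between control 3 and the other controls. The difference was 0.13 (SE 0.28; exact permutation p = 0.8, adjusted 0.8), and it was 0.41 without control 3 and -0.034 without control 2. Between lane partners it was 0.52 and -0.53, opposite in direction.

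The ratios among the glycolytic probes overlapped between groups too. The log2 ratio of Pgk1 to the Ldha reference probe averaged -1.40 ± 0.24 over controls and -1.29 ± 0.15 over PDGF-BB arrays, a difference of 0.12 (SE 0.16; exact permutation p = 0.4, n = 3 each, adjusted 0.8). Pgk1 to the Ldha catalogue probe averaged -6.91 ± 0.55 and -7.07 ± 0.14, a difference of -0.16 (SE 0.33; exact permutation p = 0.7, adjusted 0.8). The difference for the catalogue to the reference probe of Ldha was 0.28 (SE 0.41; exact permutation p = 0.6, adjusted 0.8). In the 4 ratios that include an Ldha probe and either Sdha or Pgk1, the SD among PDGF-BB arrays was 0.096 to 0.15, against 0.24 to 0.55 among controls. The SD for the catalogue to the reference probe of Ldha was 0.13 against 0.70. For Sdha to Pgk1 it went the other way, at 0.21 among PDGF-BB arrays and 0.17 among controls. These differences in spread were not tested.

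**Figure D2:**
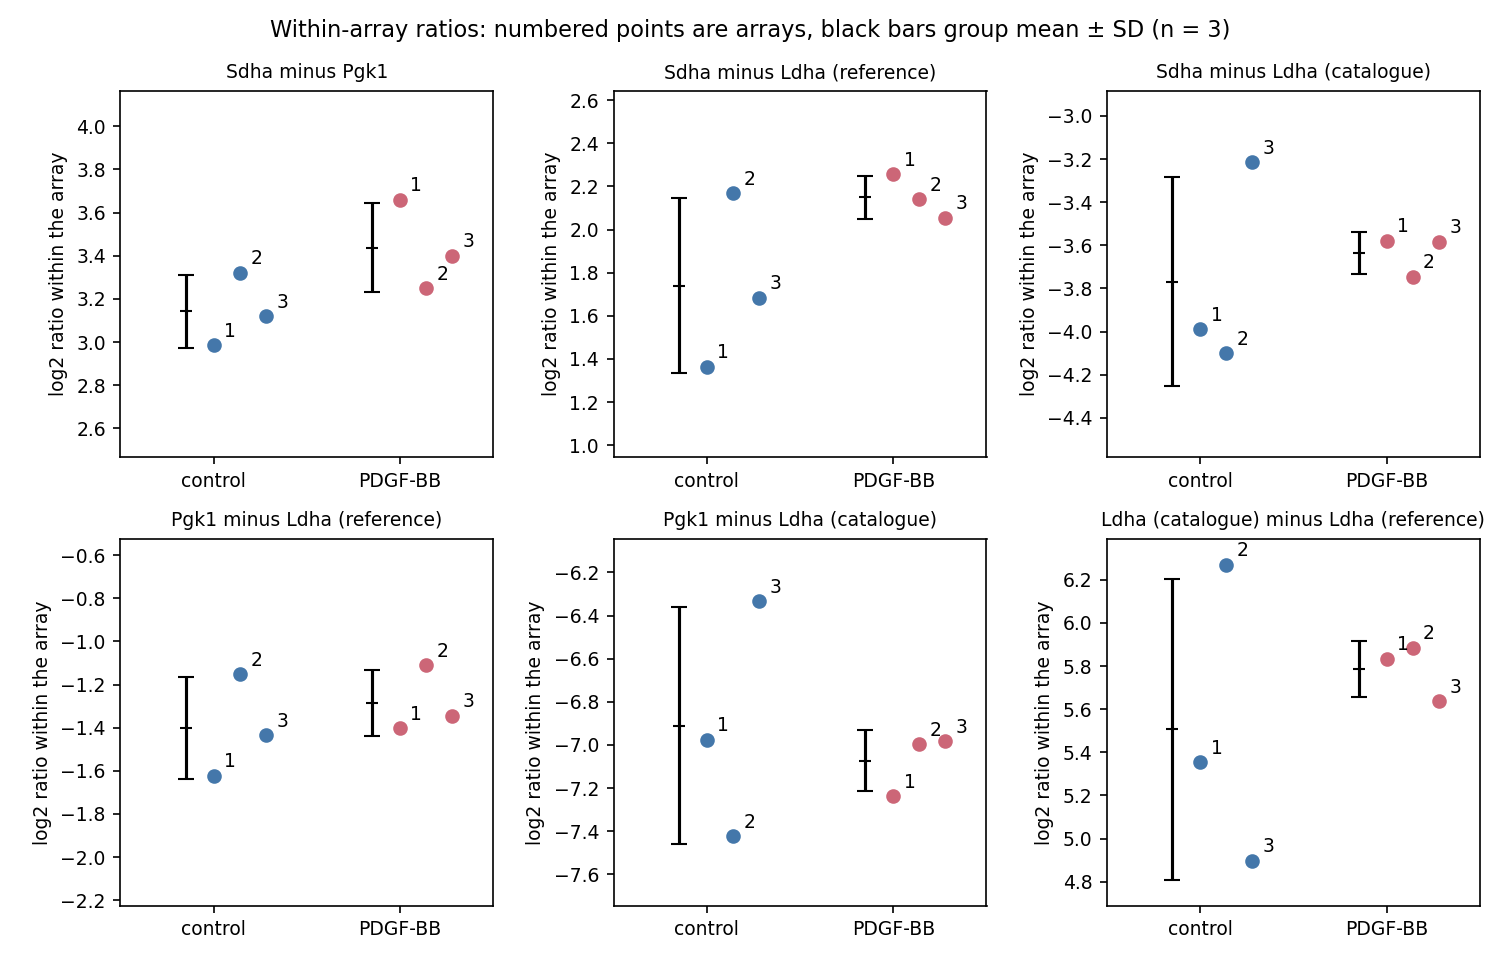
Log2 ratio of the first to the second named probe within each array (vertical axis, same span in each panel) for control and PDGF-BB cells; numbered points are arrays and black bars the group mean ± SD (n = 3). Groups overlap in all 6 ratios, and for Sdha to Pgk1 the lone overlap is control 2 (3.32) with PDGF-BB array 2 (3.25).

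With control 2 left out, 5 of the 6 ratios had groups that did not overlap, against 0 with all arrays, 1 without control 3, 1 without PDGF-BB array 2, and 0 without any of the other arrays. Over all 741 pairs of linear probes the share without overlap was 26.2% without control 2, against 11.6% with all arrays. The 6 ratios share 4 probes, so they do not count as 6 separate comparisons. The Sdha to Pgk1 difference without control 2 was 0.38.

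To place the Sdha ratios to Pgk1 and the Ldha reference probe among others, Sdha was set against all 14 other probes with CUST_ names that were well above background on all 6 arrays. Of these, 8 had a gene symbol, and Pgk1 and the Ldha reference probe were among the 8, with the differences given above. The mean log2 ratio was higher in PDGF-BB cells for 14 of the 14 probes (12 of the 12 that are no member), from 0.016 against Hsp90ab1, a cytosolic chaperone, to 0.59 against an unnamed probe. Against Actb, cytoskeletal beta-actin, the difference was also 0.59, and the groups did not overlap. The groups did not overlap either against Rpl13a, a ribosomal protein gene, where the difference was 0.47, and against 2 unnamed probes. That makes 4 of 14. Over all 11021 other probes well above background on 6 arrays, the Sdha ratio was higher without overlap at 35.4%, so 4 of 14 is not above the background. All 14 ratios share the Sdha signal, so they do not count as 14 separate comparisons. The 14 higher means restate that Sdha had a larger log2 fold change (0.42) than each of these probes, with Hsp90ab1 nearest at 0.40. The share of all probes with a higher mean ratio is not given here.

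Against the other named genes the groups overlapped. The differences were 0.41 against Gusb, a lysosomal enzyme gene, 0.34 against Rplp1, a ribosomal stalk protein gene, and 0.16 against B2m, which encodes beta-2 microglobulin. Within the first strip alone the difference was above 0 for 11 of the 14 probes, against 77.8% of all probes, so this count is near the background. The Sdha difference thus varied with the probe it was divided by, and scaling to the mean of these probes and Sdha gave an Sdha log2 fold change of 0.31 (limma adjusted p = 0.762).

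**Figure D3:**
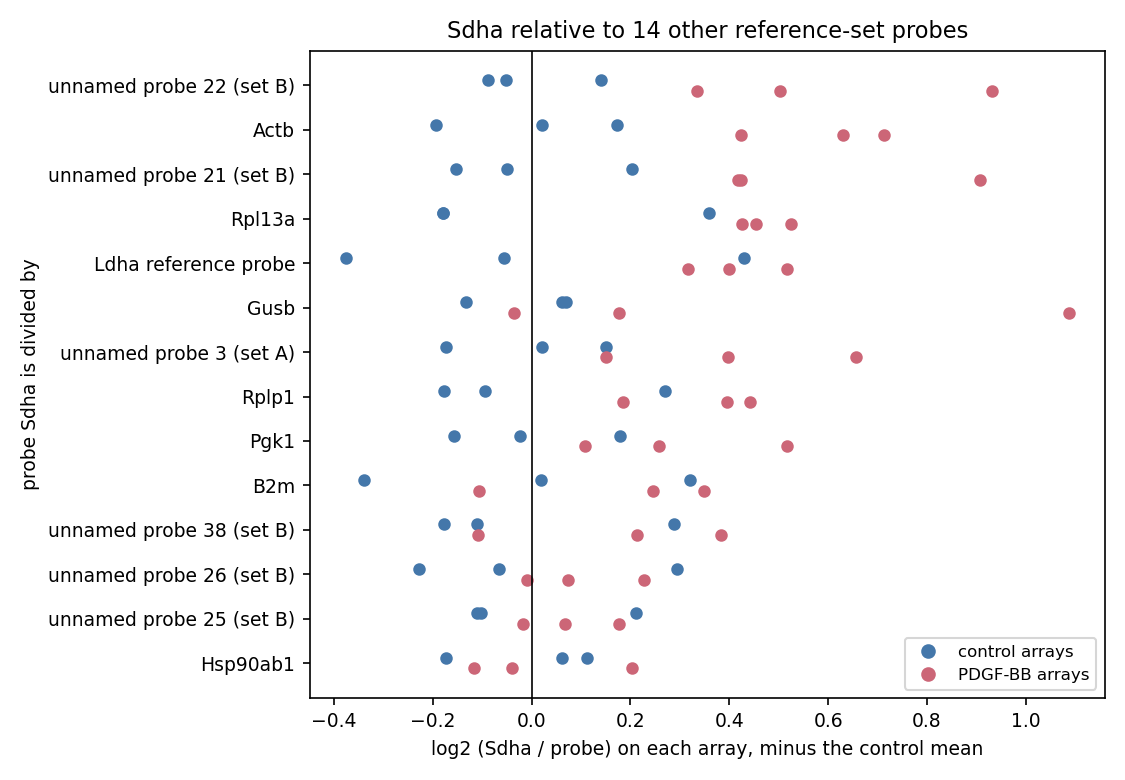
Log2 ratio of Sdha to each of 14 other probes on each array, minus the control mean of that ratio (horizontal axis); points are control and PDGF-BB arrays, unnamed probes carry the number in their name, set A is the series of probes that holds Sdha and set B another series of custom probes. The ratios to Actb, Rpl13a and unnamed probes 21 and 22 separate the groups, while those to Hsp90ab1 are mixed.

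The Ldha reference probe and Pgk1 varied together over the arrays, whatever the group. Their levels correlated at 0.87 over 6 arrays, and at 0.89 without scaling between arrays. Sdha correlated at 0.65 with Pgk1 and at 0.45 with the Ldha reference probe, and the Ldha catalogue probe at 0.44 with Pgk1. These values are descriptions. The points share the array, its scaling and its slide position. The arrays high in both Pgk1 and the Ldha reference probe, control 1 and PDGF-BB array 2, had deviations from their group means that correlated at 0.50 over 12151 probes. The low ones, control 2 and PDGF-BB array 1, correlated at 0.51, and these 2 arrays also had the highest negative control signals, 20 and 18.5. The part of the background signal in this pattern was not tested.

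**Figure D4:**
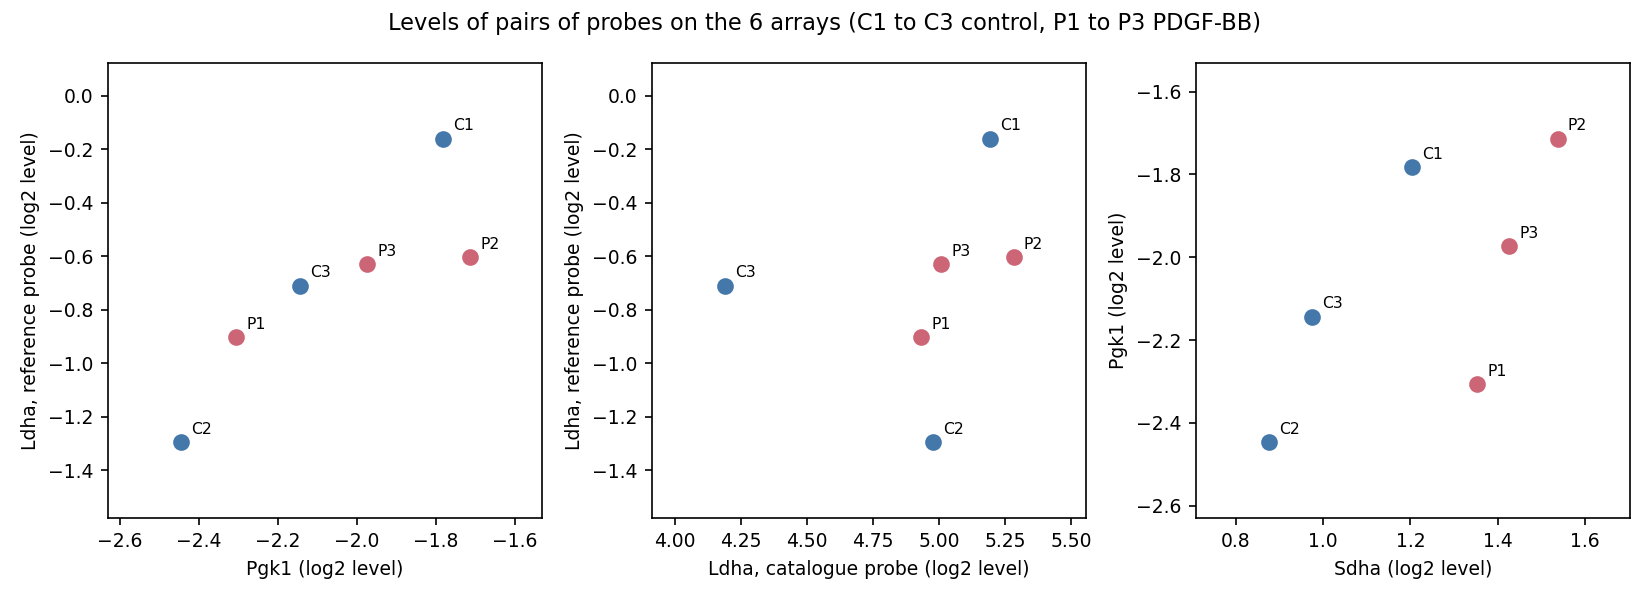
Levels of pairs of probes on the 6 arrays (log2 signal minus that of the 75th percentile probe, on both axes; C1 to C3 are controls and P1 to P3 PDGF-BB arrays). Pgk1 and the Ldha reference probe rise together (Pearson r = 0.87), and the 2 Ldha probes do so less closely (Pearson r = 0.22, rank correlation 0.71). PDGF-BB arrays lie to the right of all controls along the Sdha axis.

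Among 22 linear probes with a symbol that were well above background on all arrays, the patterns most like each member were found by Pearson correlation over the 6 arrays. For Sdha they were Hsp90ab1 (0.92), Map2, a microtubule-associated protein gene (0.90), and Cyp2e1, a cytochrome P450 gene (0.79). Pgk1 was most like Nlrp3, an inflammasome sensor gene (0.96), Cyp2e1 (0.93) and Rplp1 (0.92). The Ldha reference probe was most like Rplp1 (0.91), Pgk1 (0.87) and Nlrp3 (0.84). For the Ldha catalogue probe they were Eif4b, a translation initiation factor gene (0.83), Rpl13a (0.82) and Magoh, an exon junction complex gene (0.81), and the rank correlation with Eif4b was 0.20. No gene was among the 3 nearest to both Ldha probes. Without scaling, the correlation of Pgk1 with Nlrp3 was 0.69.

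The pathway lists had few probes among the 39 linear probes with a symbol. Of 23 glycolysis genes, 2 were found among them, Ldha and Pgk1, and of 20 tricarboxylic acid cycle and respiratory chain genes, 1 was, Sdha. None of their 4 probes passed the threshold in either direction, so neither list can be described as a pathway. Of 15 common reference genes 7 had a probe with a symbol besides the members, and 6 of these were tested. Of these 6, 0 passed in either direction in limma, and the median log2 fold change was 0.046, against 0.019 over all 12360 tested probes.

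**Figure D5:**
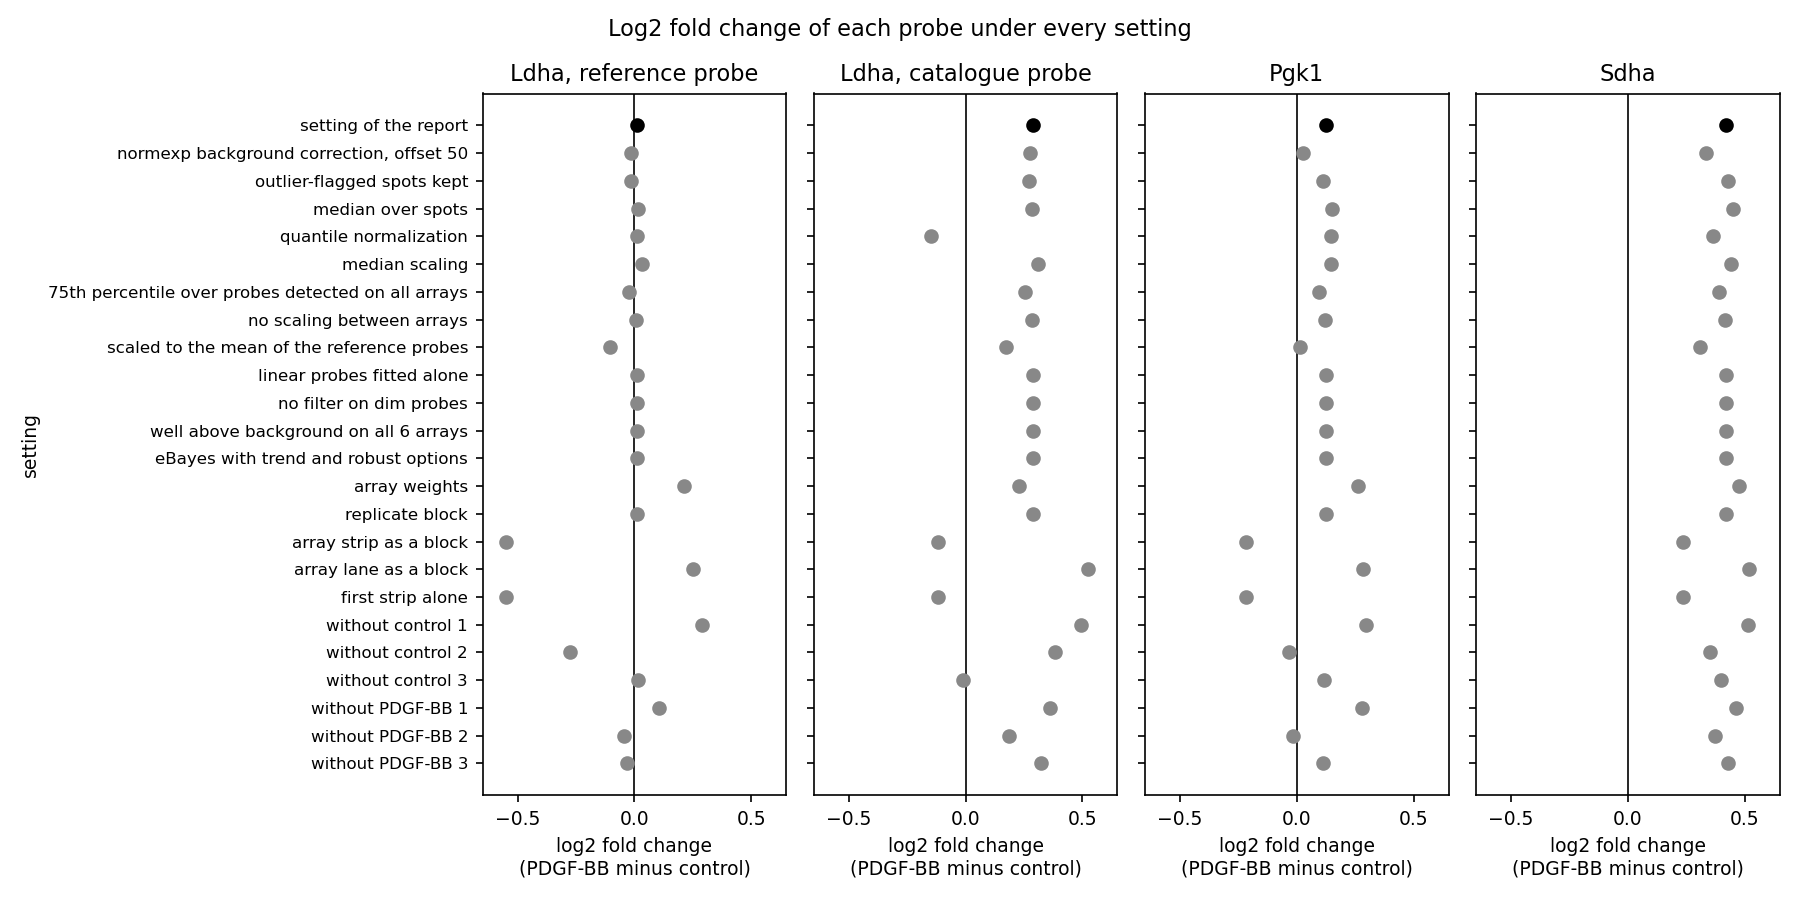
Log2 fold change of each probe (PDGF-BB minus control, horizontal axis) in the setting of the report (black) and in each alternative setting (grey, vertical axis). Sdha stays above 0 in every setting, from 0.24 to 0.52, while the other 3 probes fall on both sides of 0.

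The direction of the Sdha log2 fold change was the same in all 23 alternative settings, from 0.24 to 0.52, and its lowest limma adjusted p was 0.297, with array weights. Some of these settings could not move the log2 fold change of a member probe, and Sdha stayed at 0.42 in them. They were linear probes fitted alone, no filter on dim probes, detection on all 6 arrays, the trend and robust options, and the replicate block. The strip as a block and the first strip alone gave the same value, 0.24. For the other 3 probes the direction changed in 4 (Pgk1), 4 (Ldha catalogue probe) and 9 (Ldha reference probe) of the 23.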

How the data were processed

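RNA of 3 control and 3 PDGF-BB samples was hybridised to 1-colour arrays. Sample titles gave the groups and replicate numbers. Per the file headers, the authors' spot intensity was extracted with Agilent Feature Extraction 11.0.1.1 and background-subtracted within each array, with no scaling between arrays. The submitters' processing notes name that program and limma. The deposited table of log2 values holds circular RNA probes and was not used.

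Here the processed intensity was taken to log2, the spots of a probe were averaged without outlier-flagged spots, and each array's 75th percentile over non-control probes was subtracted. A probe counted as well above background on an array where at least 0.5 of its spots carried that flag. Probes well above background on at least 3 arrays were tested with limma 3.58.1 (R 4.3.3; lmFit and eBayes, two-sided, no block), 12313 for circular RNAs and 47 linear, in a single fit with Benjamini-Hochberg adjustment over all of them and a threshold of 0.05. The number of arrays limits the precision. Ratios within arrays were tested by exact permutation of the 6 arrays. Of 82 linear probes, 39 matched a symbol in the RefSeq table of GRCr8 by unversioned accession. The median spot signal replaced the mean signal in normexp. Named are the 4 probes, the 3 symbols most like each, list members with a probe, and the reference probes with a symbol. The members and lists were chosen with earlier results of these data known. Probe sequences and protein sequences were not used here.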

Additional observations from a re-analysis of the deposited data

How the results depend on the processing

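No member probe passed the adjusted threshold in any of 23 settings (0 of 4 in limma; in the setting of the report, Sdha alone had an unadjusted p under 0.05). Sdha kept its direction in all of them, though some of them could not move the log2 fold change of a member probe. The Ldha reference probe turned to -0.016 with normexp and with outlier-flagged spots kept, -0.023 when the percentile was taken over detected probes alone, -0.10 scaled to the mean of the reference probes, and -0.55 with the strip as a block and in the first strip alone. In both strip settings the catalogue probe was -0.12 and Pgk1 -0.22; with quantile normalization the catalogue probe was -0.15. With 1 array left out, the log2 fold changes ran from -0.28 to 0.29 for the Ldha reference probe, -0.010 to 0.49 for the catalogue probe, -0.035 to 0.30 for Pgk1 and 0.35 to 0.51 for Sdha. The Ldha reference probe was -0.28 without control 2, -0.045 without PDGF-BB 2 and -0.031 without PDGF-BB 3, and Pgk1 was -0.035 and -0.016 without control 2 and PDGF-BB 2.

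The count of 0 ratios without overlap became 2 with normexp (9.04% of all linear pairs) and 6 in the first strip alone, with 1 control (61.4% of pairs), and ran from 0 to 5 when single arrays were dropped (16.6% to 26.2% of pairs). The tally of 4 probes with a higher Sdha ratio without overlap became 7 with normexp (36.1% of all 11021 probes), 10 in the first strip (54.2%) and 4 to 7 when single arrays were dropped (38.9% to 59.5%; 7 without control 1, control 2 or PDGF-BB 2). The Sdha ratio to the Ldha catalogue probe was -0.0055 with the lane as a block and -0.034 without control 2. Without control 3 the Pgk1 to catalogue ratio was 0.13 and the catalogue to reference ratio -0.026. With single arrays dropped, these 3 differences ran from -0.034 to 0.41, -0.42 to 0.13 and -0.026 to 0.66. Beyond that the cause was not tested.

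Same-numbered arrays had deviations that correlated at -0.45, -0.37 and 0.21, and the labels do not say that numbers pair samples. With the replicate block 0 of 4 probes passed, with Sdha at 0.42 (limma adjusted p = 0.786). In the pairs of that block, 1 of 6 ratios kept 1 direction in every pair (21.7% of all linear pairs) and the Sdha ratio was higher in every pair for 4 of 14 probes (48.1% of all probes). In the 2 lane pairs these counts were 2 (60.6%) and 11 (78%), and in the first strip, a single comparison, 6 (100%) and 11 (77.8%).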

Other observations

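Pdk3, which encodes a kinase that switches off pyruvate dehydrogenase and so stands between glycolysis and the tricarboxylic acid cycle, had a linear probe but was in none of the lists, and was picked here for its function after the values had been computed. Its level was -2.17, -2.18 and -2.63 on controls 1, 2 and 3 and -1.57, -2.17 and -2.60 on PDGF-BB arrays 1, 2 and 3. PDGF-BB array 1 stood above all other arrays, and the other PDGF-BB arrays lay within the range of the controls or close to its ends. The log2 fold change was 0.21 (SE 0.28, limma adjusted p = 0.851).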
